A study of Mus musculus with 6 samples.

Results

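The 10 genes described here are the R-spondin ligands *Rspo1*, *Rspo2*, *Rspo3*, and *Rspo4*, the receptors *Lgr4*, *Lgr5*, and *Lgr6*, the membrane ubiquitin ligases *Znrf3* and *Rnf43*, and the feedback gene *Axin2*. They were chosen by symbol from the 23997 genes measured by bulk RNA-Seq in the mouse ductus arteriosus (DA), the fetal artery between the pulmonary artery and the aorta. *Rspo3* was picked for its rise in the libraries from mutant mice, so its difference between the groups is given as a description with no test. The other 9 genes give its context. All 10 were in the table, and *Rspo4* was listed at 0 in every library.

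The DA was taken from C57BL/6 embryos at E17.5 with no treatment, and 3 libraries were labelled wild type (WT 0, 1, and 2) and 3 *Prdm6f/f; SM22-Cre* (KO 0, 1, and 2). In the mutants, the SM22 promoter drives Cre-recombinase in smooth muscle cells (SMCs), where it is meant to remove the floxed *Prdm6*. Whether Cre was also active in other cells of the DA is not given in the sources used here. The study describes the WT animals as littermates, and whether they carried a floxed allele or Cre is not stated in the sources used here. Nothing in the labels says how many embryos gave each library, so p-values measure only the spread between these libraries. The study's figure legend for these data states a larger n per group than the 3 libraries analysed here, and what that n counts is not given. Expression was given as FPKM, the fragments assigned to a gene scaled to the length of its transcript and to the mapped fragments of the library, a level that can be set side by side between genes.

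R-spondins are secreted proteins that amplify Wnt signaling. An R-spondin holds an LGR receptor and the ligase ZNRF3 or RNF43 together at the cell surface, the ligase is cleared from the membrane, and Frizzled receptors that it would have removed accumulate. The outcome is more stable β-catenin, which acts with TCF/LEF factors on target genes that include *Axin2*, whose product promotes the destruction of β-catenin. RSPO3 is known for its role in the development of blood vessels, and LGR5 and LGR6 are known as markers of epithelial stem cells.

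Some libraries stood apart. KO 0 held both *Xist*, at 81.0 FPKM, and the Y-linked *Ddx3y*, at 26.4 FPKM, whereas each of the other 5 libraries was high in only 1 of the 2. The summed FPKM of 9 heart muscle genes was highest in WT 1 (1260) and KO 2 (1333), against 57.9 to 534 in the other 4. WT 2 had the most genes at 0, 11886 of 23997, against 8338 to 10313 in the others. The worth of 1 fragment was estimated from low FPKM values, kept within a set window, of genes with 1 transcript. It was about 0.0716 to 0.0913 FPKM in a transcript of 1 kilobase. The window bounds this value, so it cannot show whether the libraries were of like depth. On this measure, few genes of WT 2 had values worth about 3 to 12 fragments (16 of 3751 genes with 1 transcript, against 267 in WT 1). A listed 0 may therefore be a dropped low estimate, in WT 2 above all. The targeted gene, *Prdm6*, was at 41.7, 48.4, and 19.8 FPKM in WT and 48.6, 27.1, and 15.4 FPKM in KO (log2 fold change -0.32, SE 0.48, adjusted p = 0.833 from limma). Its whole-gene FPKM did not separate the groups and cannot check the labels, on which every direction below rests. By qRT-PCR, the study reports reduced *Prdm6* in the DA and aorta of these mutants. Whether that RNA came from the samples of these libraries is not given in the sources used here. *Myh11*, the smooth muscle myosin heavy chain, did separate the groups, at 749, 284, and 308 FPKM in WT and 148, 157, and 65.6 FPKM in KO. The study names it among the genes most reduced in its own bulk RNA-Seq of the DA, so it is no separate check of the labels. Of all genes tested, 7.84% lay lower in every KO library.

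Among the 4 ligands, *Rspo3* was higher in all 3 KO libraries than in any WT library, while *Rspo1* and *Rspo2* overlapped between the groups and *Rspo4* was listed at 0. *Rspo3* (chr10:29452416-29535867 of GRCm38, minus strand) was at 7.27, 8.99, and 5.89 FPKM in WT 0, 1, and 2. It was at 90.3, 39.6, and 26.5 FPKM in KO 0, 1, and 2. The WT libraries lay close together, and the KO libraries were spread over 3.41-fold with KO 0 the highest. Mean FPKM was 7.38 ± 1.55 in WT and 52.1 ± 33.7 in KO (SD, n = 3 each), a ratio of means of 7.06 and a log2 fold change of 2.63 on the scale of log2(FPKM + 0.1). KO 0, the library with both *Xist* and Y-linked transcripts, carried much of this size. Without KO 0 the ratio of means was 4.48, without WT 1 and KO 2 it was 9.87, and the groups did not overlap in either case. *Rspo3* shares its position with the annotated *Gm20276* on the same strand and *Gm48159* on the opposite strand. Strand use in the counting is not given in the sources used here, so reads of these transcripts cannot be told apart from those of *Rspo3*.

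*Rspo1* (chr4:124986430-125009099), an R-spondin best known from ovarian development, was at 3.50, 10.2, and 18.6 FPKM in WT and at 7.45, 11.2, and 18.3 FPKM in KO. The spread within a group, up to 5.31-fold in WT, covered the whole range of the other group. Its log2 fold change was 0.39 (SE 0.62, adjusted p = 0.845 from limma; two-sided exact permutation p = 0.7). *Rspo2* (chr15:43020794-43170826), which is needed for limb and lung development, was at 1.33, 3.70, and 6.28 FPKM in WT and 1.13, 2.59, and 7.47 FPKM in KO. Both groups again covered nearly the same range, with a log2 fold change of -0.16 (SE 0.86, adjusted p = 0.964 from limma; exact permutation p = 0.9). In both genotypes library 0 was the lowest and library 2 the highest for both genes. Whether same-numbered libraries belong together is not given in the sources used here. *Rspo4* (chr2:151842927-151874668), which is mutated in inherited absence of nails, was listed at 0 in all 6 libraries.

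**Figure D1:**
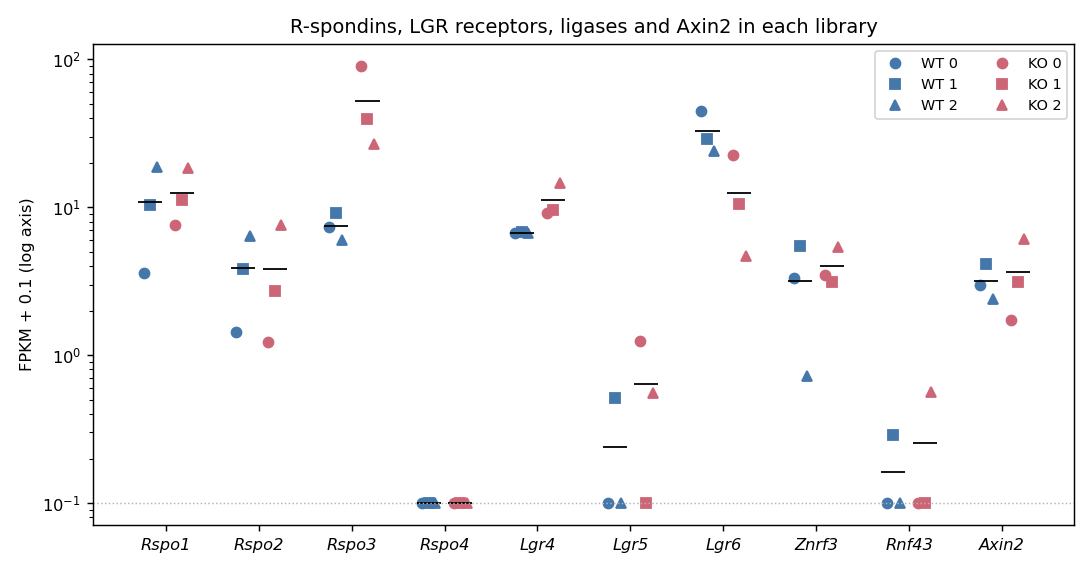
FPKM + 0.1 on a log axis for the 10 genes, with 1 point per library, WT in blue and KO in red, and a black line at each group mean; the dotted line is 0 FPKM. *Rspo3* and *Lgr4* lie higher in all KO libraries and *Lgr6* lies lower, while the other measured genes overlap between the groups.

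The make-up of the ligand pool followed from these levels. *Rspo3* contributed 60.1%, 39.2%, and 19.1% of the summed R-spondin FPKM in WT 0, 1, and 2, and 91.3%, 74.2%, and 50.7% in KO 0, 1, and 2. The sum itself was 12.1, 22.9, and 30.8 FPKM in WT and 98.9, 53.4, and 52.3 FPKM in KO. *Rspo1* was therefore the leading R-spondin in WT 1 and WT 2, and *Rspo3* led in WT 0 and in every KO library. The shares of the groups overlapped, since that of WT 0 was above that of KO 2, and the sums did not. Because *Rspo3* was picked for its difference, the shares and sums are descriptions as well.

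Among the receptors, *Lgr6* was lower and *Lgr4* higher in every KO library than in any WT library, and *Lgr5* was near 0 throughout. Neither difference passed the test across all genes. *Lgr6* (chr1:134983301-135105276, minus strand) was at 44.8, 28.7, and 24.0 FPKM in WT and 22.3, 10.3, and 4.59 FPKM in KO. The highest KO library, KO 0, lay just under the lowest WT library, WT 2, and KO 2 was far below both. Mean FPKM was 32.5 ± 10.9 in WT and 12.4 ± 9.04 in KO (SD, n = 3 each), a ratio of means of 0.382. The log2 fold change was -1.61 (SE 0.54, unadjusted p = 0.0191, adjusted p = 0.545 from limma), and the two-sided exact permutation p was 0.1, the smallest that 3 against 3 libraries allow. The ratio of means was 0.230 without KO 0 and 0.502 without KO 2, and the groups stayed apart when any 1 library was left out.

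*Lgr4* (chr2:109917647-110014257, plus strand), the most widely expressed of the 3 receptors, was at 6.55, 6.73, and 6.62 FPKM in WT and 9.01, 9.55, and 14.5 FPKM in KO. The WT libraries differed by only 1.03-fold from lowest to highest, and all KO libraries lay above them. Mean FPKM was 6.63 ± 0.0877 in WT and 11.0 ± 3.01 in KO (SD, n = 3 each), with a ratio of means of 1.66 that was 1.40 without KO 2. The log2 fold change was 0.69 (SE 0.31, unadjusted p = 0.0578, adjusted p = 0.609 from limma; exact permutation p = 0.1). *Lgr5* (chr10:115450311-115587780) was listed at 0 in WT 0, WT 2, and KO 1, and at 0.414 FPKM in WT 1, 1.16 FPKM in KO 0, and 0.453 FPKM in KO 2. At its annotated length, and with the bounded worth of a fragment given above, the value in WT 1 was worth about 23 fragments and that in KO 0 about 66. Its mean was under 1 FPKM, so it was not tested across genes, and the exact permutation p was 0.4.

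The shares of *Lgr6* and *Lgr4* in the receptor pool did not overlap between the groups, whereas those of *Lgr5*, 0% to 1.15% in WT and 0% to 3.56% in KO, did. *Lgr6* made up 87.2%, 80.1%, and 78.4% of the summed LGR FPKM in WT, and 68.7%, 52.0%, and 23.5% in KO. *Lgr4* was thus the more abundant receptor transcript only in KO 2, where it made up 74.2%. The summed LGR FPKM was 51.3, 35.9, and 30.6 in WT and 32.5, 19.9, and 19.5 in KO, so the sums of the groups overlapped. These shares were computed after the values of both genes had been seen and were not tested.

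**Figure D2:**
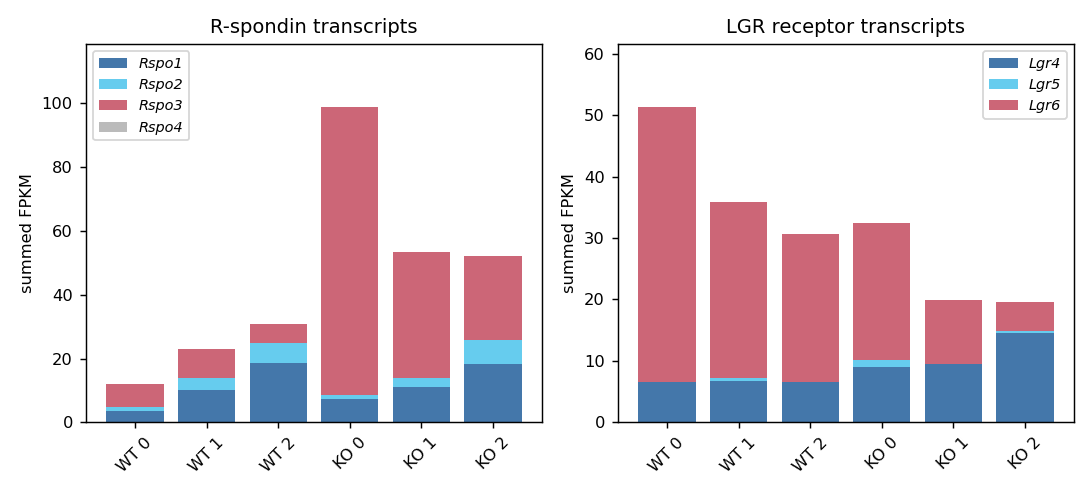
Summed FPKM of the R-spondin ligands (left) and of the LGR receptors (right) in each library, with the colours showing each gene's FPKM. *Rspo3* makes up 19.1% to 60.1% of R-spondin FPKM in WT and 50.7% to 91.3% in KO, with WT 0 inside the KO range, and *Lgr6* makes up 78.4% to 87.2% of LGR FPKM in WT and 23.5% to 68.7% in KO.

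The sequences just upstream of *Lgr4* and *Lgr6*, the receptor genes whose groups did not overlap, and of *Axin2* are shown because SMC genes are often controlled through CArG boxes, which bind serum response factor, and β-catenin targets through TCF/LEF sites. Each is the 250 bases before the RefSeq gene start on GRCm38.p6, written in the direction of transcription, at chr2:109917397-109917646 for *Lgr4* (plus strand), chr1:135105277-135105526 for *Lgr6* (minus strand), and chr11:108920099-108920348 for *Axin2* (plus strand). Capitals mark the match to a CArG box.
Lgr4: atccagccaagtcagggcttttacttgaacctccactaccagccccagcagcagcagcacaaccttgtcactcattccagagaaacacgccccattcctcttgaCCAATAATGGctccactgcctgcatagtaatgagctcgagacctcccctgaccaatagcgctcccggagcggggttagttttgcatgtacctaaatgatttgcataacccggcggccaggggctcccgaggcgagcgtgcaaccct
Lgr6: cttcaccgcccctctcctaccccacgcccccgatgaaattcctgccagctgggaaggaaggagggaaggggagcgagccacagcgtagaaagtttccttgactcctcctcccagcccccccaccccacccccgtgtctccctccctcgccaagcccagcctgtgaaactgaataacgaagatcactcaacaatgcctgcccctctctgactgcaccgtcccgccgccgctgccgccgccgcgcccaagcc
Axin2: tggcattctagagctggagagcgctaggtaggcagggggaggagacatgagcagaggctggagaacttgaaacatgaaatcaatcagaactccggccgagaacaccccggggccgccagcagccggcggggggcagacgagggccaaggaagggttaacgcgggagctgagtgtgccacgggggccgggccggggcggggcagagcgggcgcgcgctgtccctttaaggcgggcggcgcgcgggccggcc
The *Lgr4* window held 1 CArG match, which starts 146 bases before the gene start, and the *Lgr6* and *Axin2* windows held none. A CArG match was present in 1.47% of the 32851 RefSeq promoter windows of the same length. The TCF/LEF letters, searched on both strands as CTTTGAA or CTTTGAT or CTTTGTA or CTTTGTT, were in 14.8% of all windows and in none of the 7 windows matched to 6 of the 10 genes (*Lgr4*, *Lgr6*, *Axin2*, *Rspo1*, *Rspo4*, and *Rnf43*). The absence of a match says only that these letters are not in these windows. Windows of *Rspo2*, *Rspo3*, *Lgr5*, and *Znrf3* were not analysed here.

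The ubiquitin ligases and *Axin2* overlapped between the groups. *Znrf3* (chr11:5276324-5444847), which marks Frizzled receptors for removal, was at 3.23, 5.36, and 0.621 FPKM in WT and 3.41, 3.04, and 5.28 FPKM in KO. WT 2, the library with the most genes at 0, was the lowest, and the other 5 libraries lay between 3.04 and 5.36 FPKM. The log2 fold change of *Znrf3* was 0.73 (SE 0.82, adjusted p = 0.785 from limma; exact permutation p = 0.7), and without WT 2 it was -0.13. *Rnf43* (chr11:87662722-87735539), the second ligase of this kind, was at 0.189 FPKM in WT 1 and 0.460 FPKM in KO 2 and listed at 0 in the other 4 libraries, so it was not tested across genes (exact permutation p = 1). Both libraries in which it was detected are those high in heart muscle transcripts. They are also those with the fewest genes at 0, 8832 in WT 1 and 8338 in KO 2. These traits cannot be told apart here, and the part of either was not tested.

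*Axin2* (chr11:108920349-108950783), the usual readout of β-catenin activity among these genes, was at 2.90, 4.06, and 2.29 FPKM in WT and 1.62, 3.01, and 6.04 FPKM in KO. The KO libraries held both the lowest and the highest of the 6 values. Mean FPKM was 3.09 ± 0.898 in WT and 3.56 ± 2.26 in KO (SD, n = 3 each), with a log2 fold change of 0.045 (SE 0.63, adjusted p = 0.984 from limma; exact permutation p = 0.9). Its sign depended on the libraries and on the scaling: the log2 fold change was -0.42 without KO 2 and -0.36 after quantile normalization. With this standard error, a difference of the size seen for *Lgr4* was not detectable.

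In all, 6 of the 9 genes other than *Rspo3* had a mean of at least 1 FPKM and were tested, and 0 of the 6 had an adjusted p under 0.05 in limma, beside 0.00772% of the 12955 genes tested. The 1 gene called in the whole table was *Rn45s*, the ribosomal RNA precursor. With its own methods, the study reports many more differentially expressed genes in its bulk RNA-Seq of the DA. At an unadjusted p under 0.05 the count was 1 of 6 (*Lgr6*), beside 8.28% of all genes tested. The groups did not overlap for 1 of 6 with KO higher (*Lgr4*), beside 8.21% of all genes, and for 1 of 6 with KO lower (*Lgr6*), beside 7.84%. Over all 12955 genes the median log2 fold change was 0.072, and over these 6 it was 0.22. With 6 genes tested, counts of 1 do not set these genes apart from the rest.

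By mean FPKM over all 6 libraries, the order from high to low was *Rspo3*, *Lgr6*, *Rspo1*, *Lgr4*, *Rspo2*, *Znrf3*, *Axin2*, *Lgr5*, *Rnf43*, and *Rspo4*. The first pair exchanged places between the genotypes. *Lgr6* lay above *Rspo3* in 3 of 3 WT libraries, and *Rspo3* above *Lgr6* in 3 of 3 KO libraries. Because *Rspo3* was picked for its rise in KO, its place in this order and the exchange are descriptions only. *Lgr6* was above *Rspo1* in 4 of 6 libraries, *Rspo1* above *Lgr4* in 4 of 6, and *Rspo2* above *Znrf3* in 2 of 6, so neighbours in the middle of the order did not differ beyond their spread. *Lgr4* was above *Rspo2*, and *Axin2* above *Lgr5*, in 6 of 6.

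The other genes of the pathway were taken from lists chosen for their known roles, with earlier results of these data known. Of 27 core genes, from the LRP5 and LRP6 co-receptors to the TCF/LEF factors, 26 were tested and 0 passed in either direction, with 1 at an unadjusted p under 0.05, beside 8.28% of all genes tested. The groups did not overlap for 2 of the 26 with KO higher, beside 8.21%, and for 2 with KO lower, beside 7.84%. The median log2 fold change of the 26 was 0.021. *Ctnnb1*, which encodes β-catenin, was at 266, 202, and 162 FPKM in WT and 284, 206, and 195 FPKM in KO, with overlapping groups. *Tcf7l1*, a TCF factor that mostly represses its targets, was at 31.9, 22.2, and 46.6 FPKM in WT and 16.1, 19.6, and 13.5 FPKM in KO. All KO values were below all WT values, with a log2 fold change of -0.98 (SE 0.30, adjusted p = 0.540 from limma). The TCF/LEF genes *Lef1* and *Tcf7* had the highest log2 fold changes of the list, at low levels and with overlapping groups. *Lef1* was at 0.617, 1.39, and 0 FPKM in WT and 4.51, 2.15, and 0.702 FPKM in KO (log2 fold change 2.09, SE 1.38, adjusted p = 0.687 from limma). *Tcf7* was at 4.07, 0.529, and 0 FPKM in WT and 0.842, 1.78, and 4.05 FPKM in KO (log2 fold change 1.60, SE 1.5, adjusted p = 0.747 from limma). Both were listed at 0 in WT 2, and such a 0 can enlarge a log2 fold change on this scale. *Btrc*, which encodes the subunit that brings β-catenin to its ubiquitin ligase, also lay lower in every KO library (log2 fold change -0.44, SE 0.32, adjusted p = 0.701 from limma). *Apc*, the scaffold of the destruction complex, and *Tnks2*, a tankyrase that marks AXIN for destruction, lay higher in every KO library, with log2 fold changes of 0.34 and 0.32 (adjusted p = 0.694 and 0.639 from limma).

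Of 16 other targets and feedback genes of β-catenin, 5 were tested, 0 passed, and the median log2 fold change of the 5 was -0.50. A further 2 were listed at 0 in all libraries, and the remaining 9 had a mean under 1 FPKM. The lowest log2 fold changes of the 5 were those of the inhibitors *Apcdd1* and *Nkd1*, the 2 of the 5 with an unadjusted p under 0.05, beside 8.28% of all genes tested, and the 2 with KO lower without overlap, beside 7.84%. *Apcdd1*, a membrane protein that blocks Wnt receptors, was at 22.3, 29.2, and 11.0 FPKM in WT and 5.02, 3.88, and 8.61 FPKM in KO. Its groups did not overlap (log2 fold change -1.79, SE 0.46, adjusted p = 0.468 from limma). *Nkd1*, which binds Dishevelled, was at 20.6, 21.4, and 13.7 FPKM in WT and 8.24, 10.8, and 9.01 FPKM in KO. Its groups did not overlap either (log2 fold change -0.96, SE 0.28, adjusted p = 0.524 from limma). *Ccnd1*, which encodes cyclin D1, had the highest log2 fold change of the 5 tested, but KO 0 lay below every WT library (log2 fold change 1.07, SE 0.53, adjusted p = 0.624 from limma).

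Syndecans and glypicans are heparan sulfate proteoglycans of the cell surface, and syndecan 4 can bind RSPO3. All 9 were tested, 0 passed, 1 had an unadjusted p under 0.05 (*Sdc4*), and the median log2 fold change was -0.055. The groups did not overlap for 2 of the 9, both with KO lower, beside 7.84% of all genes tested. *Sdc4* was at 37.2, 23.9, and 64.9 FPKM in WT and 19.4, 20.7, and 20.7 FPKM in KO, with all KO libraries lower (log2 fold change -0.93, SE 0.34, adjusted p = 0.574 from limma). *Sdc1* also lay lower in every KO library (log2 fold change -0.35, SE 0.18, adjusted p = 0.643 from limma). *Gpc1* had the highest log2 fold change of the 9, with overlapping groups (0.38, SE 0.45, adjusted p = 0.798 from limma). Of the 5 hormone receptors most related to the LGR receptors, *Rxfp1* was the 1 tested, and its groups overlapped (log2 fold change 0.53, SE 1.93, adjusted p = 0.943 from limma). *Lhcgr* was listed at 0 in all 6 libraries.

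**Figure D3:**
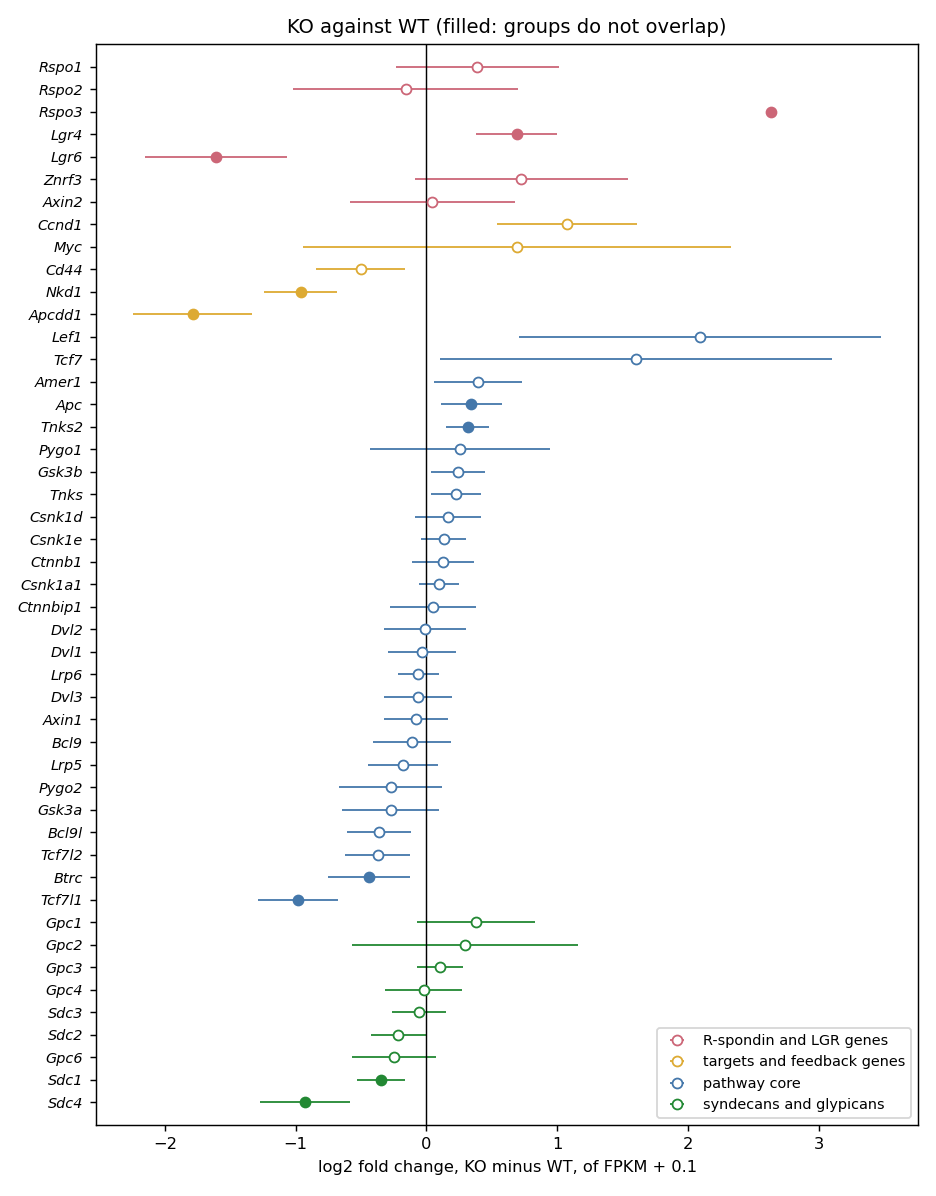
Log2 fold change of KO against WT, on the scale of FPKM + 0.1, for the tested genes of 4 lists; bars are the standard error from limma, *Rspo3* has none because it was picked for its difference, and filled points mark genes whose groups do not overlap. The core genes centre near 0 (median 0.021), and *Lgr6* (-1.61), *Apcdd1* (-1.79), *Nkd1* (-0.96), *Tcf7l1* (-0.98), and *Sdc4* (-0.93) lie lowest among the filled points.

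The libraries also differed in transcripts of other cell types, which were summed over marker lists. Smooth muscle markers were present in every library and summed to 2473 to 5707 FPKM in WT and 913 to 2386 FPKM in KO. Of these markers, 0 of 9 were higher in mean in KO and 5 of 9 lower in every KO library, beside 7.84% of all genes tested. In bulk tissue, fewer cells of a type and less RNA per cell cannot be told apart. Schwann cell markers summed to 14.9 to 40.3 FPKM in WT and 47.7 to 174 FPKM in KO (8 of 9 higher in mean, 4 in every library). Neuron markers summed to 15.9 to 24.9 FPKM in WT and 51.4 to 64.6 FPKM in KO (9 of 9 higher in mean, 3 in every library). Of all genes tested, 8.21% were higher in every KO library. Neither the Schwann cell nor the neuron list had a marker at 0 throughout. The sums of the other lists overlapped between WT and KO: endothelial 390 to 567 and 473 to 760, fibroblast 2367 to 4337 and 1824 to 3665, mesothelial and epithelial 66.7 to 233 and 82.1 to 185, erythroid 4355 to 8749 and 4980 to 27521, macrophage 37.6 to 217 and 41.0 to 268, cartilage 29.4 to 38.7 and 25.7 to 48.4, and heart muscle 57.9 to 1260 and 124 to 1333 FPKM. Of the endothelial markers, 8 of 10 were higher in mean in KO, 2 of them in every library. The count higher in mean was 7 of 8 for erythroid and 6 of 8 for mesothelial and epithelial markers, with 0 in every library. It was 3 of 9 for fibroblast, 3 of 9 for heart muscle, 4 of 7 for macrophage, and 3 of 6 for cartilage markers. *Hba-a2* and *Matn1* were at 0 in all libraries.

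*Lgr6* was lower in the KO libraries, in which the smooth muscle sum was lower too. WT 0 was highest and KO 2 lowest for both *Lgr6* and the smooth muscle sum. As a percentage of that sum, *Lgr6* was at 0.785%, 1.01%, and 0.970% in WT and 0.935%, 0.578%, and 0.503% in KO, so that KO 0 fell among the WT libraries. Against *Myh11* alone, *Lgr6* was at 5.98%, 10.1%, and 7.79% in WT and 15.1%, 6.61%, and 6.99% in KO, and the groups overlapped. Against *Acta2*, smooth muscle actin, the log2 ratio was -5.66, -5.29, and -5.16 in WT and -5.70, -6.29, and -6.43 in KO, and they did not. These ratios were chosen after the values were seen, and the part of the smooth muscle transcripts in the lower *Lgr6* was not tested.

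*Rspo3* and *Lgr4* were higher in the KO libraries, in which the sums of the Schwann cell and neuron markers were higher too. *Rspo3* was highest in KO 0, where the Schwann cell sum was the lowest of KO (47.7 FPKM). In KO 0 *Sox10*, a gene of the Schwann cell list, was at 1.94 FPKM, within the WT range of 1.41 to 2.41 FPKM. *Lgr4* and the Schwann cell sum had the same order within KO, with KO 0 lowest and KO 2 highest (174 FPKM for the sum). The erythroid sum was 15469 FPKM in KO 0 and 27521 FPKM in KO 1 but 4980 FPKM in KO 2, within the WT range. The part of these cells in the levels of *Rspo3* and *Lgr4* was not tested.

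**Figure D4:**
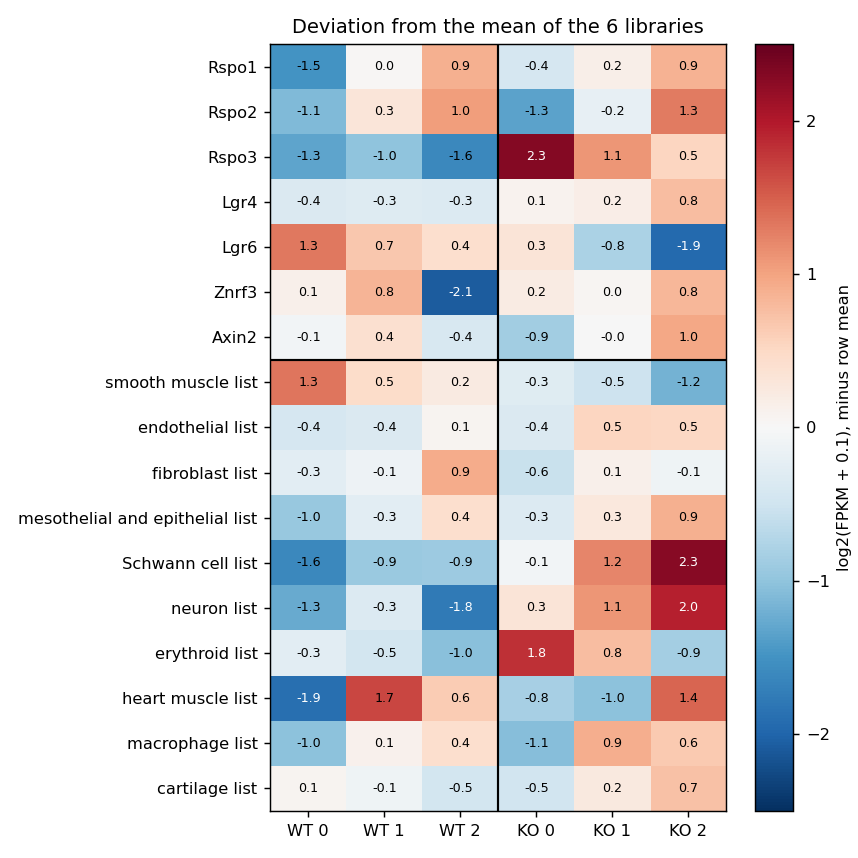
Deviation of each library from the mean of the 6, in log2(FPKM + 0.1), for the 7 of the 10 genes averaging at least 1 FPKM (above the line) and the mean over each marker list (below it); red is above and blue below the mean. *Lgr6* and the smooth muscle list are both highest in WT 0 and lowest in KO 2, while *Rspo3* is highest in KO 0 and the Schwann cell and neuron lists in KO 2.

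The genes whose log2(FPKM + 0.1) pattern over the 6 libraries was most like that of *Rspo3*, among 8789 genes with a mean of at least 5 FPKM and no library at 0, were *Dpcr1* (Pearson r = 0.994), *Col12a1* (0.993), *Nbea* (0.993), *Aktip* (0.989), and *Slc2a13* (0.985). All points share the same 6 libraries, and the values are descriptions. *Dpcr1* was at 2.34, 2.66, and 1.17 FPKM in WT and 140, 22.5, and 17.9 FPKM in KO. *Col12a1*, which encodes a fibril-associated collagen, was at 95.1, 101, and 74.1 FPKM in WT and 262, 179, and 150 FPKM in KO. Both share with *Rspo3* the order KO 0, KO 1, KO 2, and then WT.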

How the data were processed

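Bulk RNA-Seq was measured in 6 DA libraries, grouped by their labels. Per the study's methods, the authors removed low-quality and short reads and used TopHat2 to map the rest to mm10. They then used Cufflinks for values per gene, and Cuffdiff and R for further analysis. The deposited values are FPKM, 1 per gene and library, and which step wrote them is not given in the sources used here. Versions, gene annotation, and scaling between libraries are not given in the sources used here. FPKM holds no counts, so no count test was used. Upper quartiles of FPKM were 10.4 to 10.8 in all libraries. The worth of a fragment was the median of low FPKM values times length, within a set window, of genes with 1 transcript. The window bounds this value, so it does not compare the depth of the libraries, and no counting interval was computed.

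From the deposited FPKM, log2(FPKM + 0.1) was tested where a gene averaged at least 1 FPKM over the 6 libraries, with limma 3.58.1 in R 4.3.3 (two-sided, with moderated variances that follow the mean, Benjamini-Hochberg over all genes, threshold 0.05). The added 0.1 shrinks the fold changes of low genes, while a listed 0 in 1 library can enlarge or reverse them. Cuffdiff was not repeated. Exact permutation tests used scipy 1.17.1. The script was tested on simulated data. Gene positions came from GENCODE vM21 and promoter windows from RefSeq (GRCm38.p6). Chosen with earlier results of these data known were the 10 genes and all lists: core genes, targets and feedback genes, syndecans and glypicans, hormone receptors, and markers of smooth muscle, endothelial, fibroblast, mesothelial and epithelial, Schwann, neuron, erythroid, heart muscle, macrophage, and cartilage cells. Of each pathway list, the genes named are those whose groups do not overlap or that lie at the ends of the fold changes. *Prdm6* and the 5 genes most like *Rspo3* are named as well. *Ctnnb1*, *Lhcgr*, and the marker genes were named after their values were seen. Alternatives changed the pseudocount, filter, scaling, variance model, and replicate block, or left out libraries. The fit without WT 1 and KO 2 was chosen after seeing the data.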

Additional observations from a re-analysis of the deposited data

How the results depend on the processing

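Over 18 alternatives to the test, the log2 fold change of *Rspo3* ranged from 2.14 to 3.17, that of *Lgr4* from 0.48 to 0.82 (adjusted p 0.440 to 0.880 from limma), and that of *Lgr6* from -2.17 to -1.04 (adjusted p 0.287 to 0.880). None of the 6 tested genes other than *Rspo3*, nor of the core or feedback genes, passed under any of them. The genes called in the whole table numbered 1, and 2 without a mean-variance trend and without moderation (*Brinp3* added), 3 without WT 1 and KO 2, the libraries highest in heart muscle genes, and 1 to 3 when each library was left out in turn, with 3 without WT 1, without KO 0, or without KO 2. *Axin2* reversed to -0.36 after quantile normalization, -0.042 with array weights, and -0.21 without WT 1 and KO 2, and *Rspo2* and *Znrf3* reversed to 0.16 and -0.042 with array weights. Leaving out 1 library gave -0.26 to 0.93 for *Rspo1*, -0.84 to 0.47 for *Rspo2*, -0.13 to 1.33 for *Znrf3*, and -0.42 to 0.49 for *Axin2*. The cause of the reversals was not tested. The replicate block called 1 gene in the whole table and 0 of these genes. Whether same-numbered libraries are paired is not given in the sources used here. Their deviations from the group means correlated at 0.122, -0.0761, and -0.00878 across genes, which cannot decide it. Over all genes tested, the median lay between 0.0083 and 0.13 (log2) under the alternatives. With 3 libraries a group and standard errors of 0.31 to 0.86, changes of the size of *Lgr4* in the other genes could not be detected, and a value of 0 FPKM, above all in WT 2, may be a dropped low estimate.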
